A study of Caenorhabditis elegans with 24 samples.

Results

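A set of 9 genes of the TORC1 and AMPK nutrient-sensing pathways, which act upstream of where the HLH-30 protein resides in the cell, was followed in whole *Caenorhabditis elegans* after heat. They were taken by gene name, as the gene IDs in the deposited tables carry it in the WBcel235 annotation: *let-363*, *daf-15*, *raga-1*, *ragc-1*, *rheb-1*, *rsks-1*, *flcn-1*, *aak-1* and *aak-2*. All 9 were among the 46756 annotated genes and all 9 passed the low-count filter, a mean of at least 10 counts per library, with 13482 genes in all. HLH-30 is the worm ortholog of the mammalian transcription factor TFEB. The study asked what HLH-30 contributes when it is present only in neurons. Animals on day 1 of adulthood were kept for 3 h at 37°C or at 20°C on OP50 bacteria, and RNA was taken from large pools of whole worms.

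The 3 genotypes were neuronal rescue animals, *hlh-30* mutants and wildtype. The rescued animals (strain LRL147) were *hlh-30(tm1978)* mutants with a transgene in which the *rab-3* promoter, active in neurons, drives HLH-30::GFP. This strain is 1 transgenic line, so in every comparison with rescued animals the transgene and anything else particular to that line cannot be told apart. The mutants (strain LRL31) carried the *hlh-30(tm1978)* allele alone, and wildtype was N2. Rescued animals and mutants thus shared the tm1978 allele. Each genotype was sampled at 37°C and at 20°C with 4 libraries per group, except that 3 libraries of wildtype at 20°C were used. The file labelled as the remaining one held, for all 46756 genes, the same counts as the library of wildtype at 37°C replicate 4 and was left out. Levels are given as CPM, counts relative to the library total after scaling by the trimmed mean of M-values. Each comparison was tested in edgeR over all 13482 genes, and a gene was called at a Benjamini-Hochberg adjusted p under 0.05.

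TORC1 is a protein kinase complex that promotes growth and protein synthesis when amino acids and growth signals are plentiful. In the worm, *let-363* encodes the TOR kinase and *daf-15* its Raptor subunit. The Rag GTPases RAGA-1 and RAGC-1 bring TORC1 to the lysosome when amino acids are present, the GTPase RHEB-1 activates it there, and folliculin (FLCN-1) acts on the Rag pair. RSKS-1 is the ribosomal S6 kinase downstream of TORC1. AMPK works in the opposite sense: it is a heterotrimer that senses a low energy charge, and *aak-1* and *aak-2* encode its alternative catalytic alpha subunits. In mammals TORC1 phosphorylates TFEB and holds it in the cytoplasm, whereas folliculin loss and AMPK activity are tied to its nuclear entry. These are controls on protein activity, and the libraries report only the RNA of their genes.

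The 23 libraries held from 11207383 to 28091186 counts, and 6 of them, from 23025013 counts up, stood apart in depth from the other 17, which reached 15845829. Of the 6, 1 was of rescued animals at 37°C, 1 each of mutants at 37°C and at 20°C, and 3 of wildtype at 37°C. The targeted gene went with the labels: *hlh-30* had 24.4, 27.0, 50.7 and 24.7 CPM in rescued animals at 37°C, 7.87, 4.19, 6.95 and 5.64 CPM in mutants at 37°C and 17.3, 20.4, 15.5 and 17.2 CPM in wildtype at 37°C. At 20°C it had 61.2, 77.2, 57.3 and 117 CPM in rescued animals, 8.12, 8.62, 15.996 and 13.7 CPM in mutants and 39.9, 43.5 and 73.7 CPM in wildtype. Markers of germline, intestine, body wall muscle, neurons, epidermis and sperm were present, as whole animals hold all of these. In bulk RNA, fewer cells of a type and less RNA per cell cannot be told apart. All 8 intestine markers fell with heat in mutants and in wildtype and 5 of 8 fell in rescued animals, and their summed level in rescued animals was 12776 to 17600 CPM at 37°C, against 27670 to 92267 CPM at 20°C. It was 2806 to 11329 CPM at 37°C, against 30920 to 76887 CPM at 20°C, in mutants, and 4675 to 8226 CPM at 37°C, against 49864 to 105883 CPM at 20°C, in wildtype. No intestine marker was at 0 in any library. Of 10 germline markers, 2 rose in rescued animals, 4 rose and 2 fell in mutants, and 3 rose in wildtype. The part of these tissues in the members' differences was not tested.

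Set against each other per length, the 3 small GTPases led. On the TPM scale (transcript abundance relative to the library after dividing counts by gene length), the mean over the 23 libraries was 270 ± 29.6 (SD) for *ragc-1*, 116 ± 11.9 for *raga-1* and 111 ± 23.6 for *rheb-1*. The kinases and their partners lay lower, at 27.0 ± 9.15 TPM for *rsks-1*, 16.8 ± 4.22 for *daf-15*, 16.4 ± 9.10 for *aak-1*, 15.5 ± 6.32 for *flcn-1*, 11.7 ± 2.99 for *let-363* and 8.25 ± 4.94 for *aak-2*. The TOR kinase and its Raptor subunit kept a narrow ratio: *daf-15* over *let-363* in TPM averaged between 1.37 and 1.58 in the 6 groups. The genes are spread over the genome (WBcel235): *let-363* on I (5245743 to 5263413), *raga-1* (11301359 to 11302783) and *flcn-1* (6928770 to 6947899) on II, *aak-1* (8756995 to 8761101), *rheb-1* (9454163 to 9456030) and *rsks-1* (11245120 to 11252281) on III, *daf-15* (9386208 to 9394930) and *ragc-1* (11603613 to 11604927) on IV, and *aak-2* (16796087 to 16803357) on X. Of the 9, 7 share no exonic base with another gene, while *flcn-1* shares 45 bases with *malt-1* and *aak-1* shares 75 bases, 3.32% of its exonic length, with *sma-2*, both on the opposite strand.

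**Figure D1:**
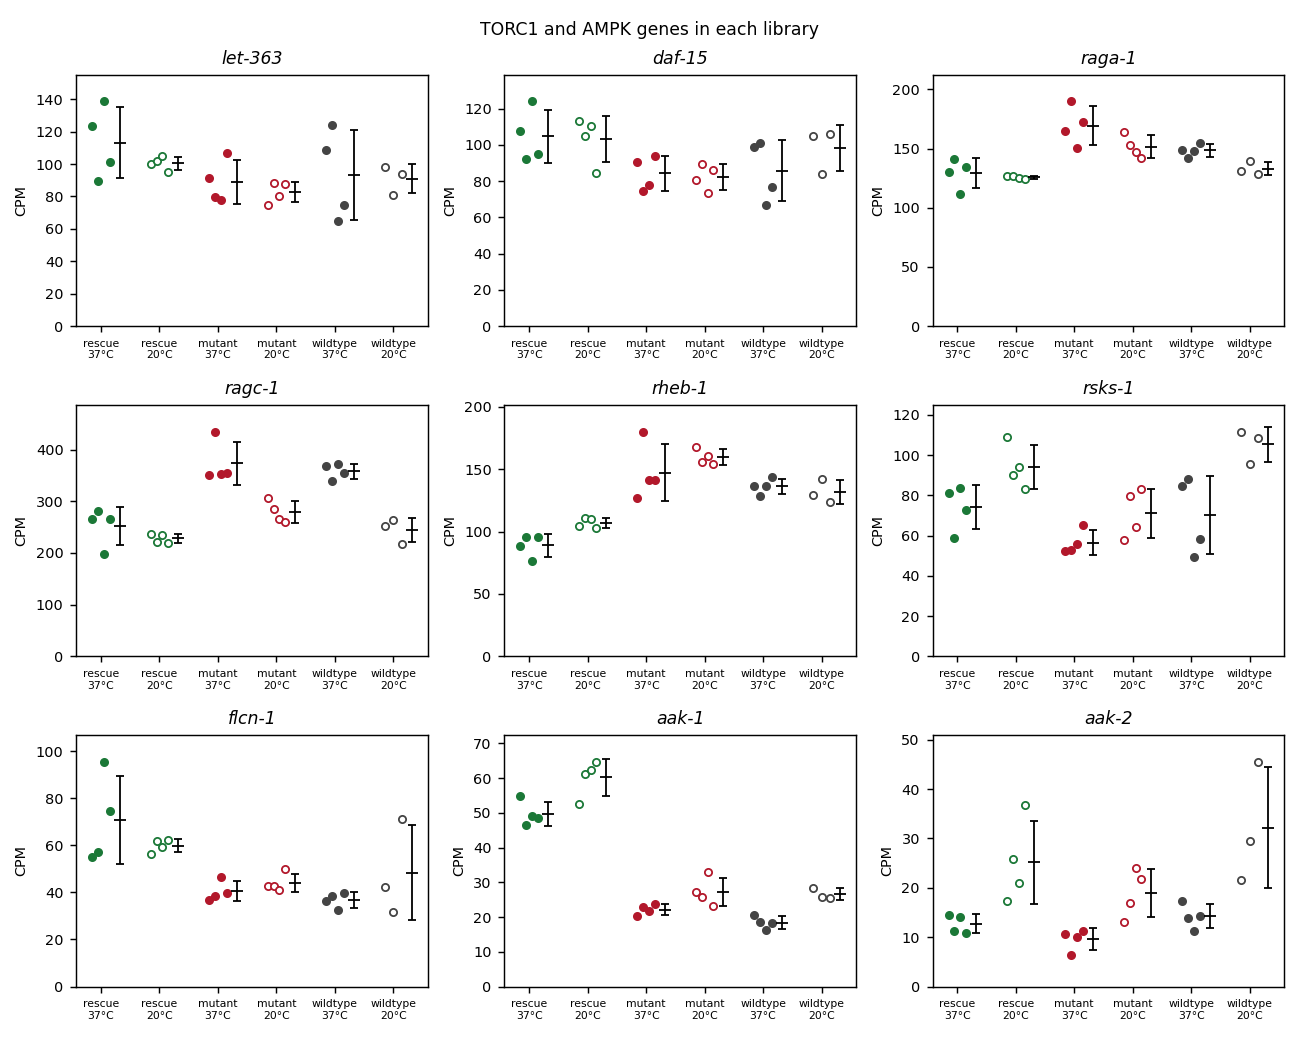
Each panel plots 1 of the 9 genes, with the level in CPM on a linear axis from 0 and the 6 groups along the other axis; points are libraries (filled at 37°C, open at 20°C), and the bar beside them is the mean and its SD. The points for *aak-1* in rescued animals sit between 46.6 and 64.7 CPM, above every library of mutants and wildtype, and *aak-2* is lower at 37°C in each genotype.

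Under heat 1 of the 9 genes was called in all 3 genotypes, with a fall of *aak-2*, the catalytic AMPK subunit best known in worms for its role in longevity and stress resistance. In rescued animals *aak-2* had 14.6, 11.2, 14.1 and 10.9 CPM at 37°C, against 17.4, 25.8, 21.0 and 36.7 CPM at 20°C. In mutants it had 10.7, 6.32, 10.1 and 11.2 CPM at 37°C, against 13.02, 16.9, 24.0 and 21.9 CPM at 20°C. In wildtype it had 17.3, 13.9, 11.3 and 14.4 CPM at 37°C, against 21.6, 29.5 and 45.5 CPM at 20°C. Every library at 37°C was thus below every library at 20°C of its own genotype. The log2 fold change was -0.94 ± 0.23 (SE, adjusted p = 0.0106) in rescued animals, -0.99 ± 0.23 (adjusted p = 0.00514) in mutants and -1.19 ± 0.26 (adjusted p = 0.00992) in wildtype. The call in mutants held in 12 of 12 alternatives, whereas that in rescued animals was lost without replicate 2 (-0.88, adjusted p = 0.0967). The call in wildtype was lost without replicate 3 (-1.14, adjusted p = 0.0547), without replicate 4 (-0.83, adjusted p = 0.0617), without the deeper libraries (-0.91, adjusted p = 0.292) and with depth class as a covariate (-0.89, adjusted p = 0.213).

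The second catalytic subunit moved less. *aak-1* had 20.5, 18.7, 16.2 and 18.3 CPM in wildtype at 37°C, against 28.5, 25.9 and 25.5 CPM at 20°C, and the groups did not overlap. It fell by 0.54 on the log2 scale (± 0.16 SE, adjusted p = 0.0344), a call that held in only 5 of 12 alternatives: the value ranged from -0.66 to -0.37, and leaving out any one replicate number raised the adjusted p to between 0.0572 and 0.158. In mutants the difference was -0.30 ± 0.14 (adjusted p = 0.123), and rescued animals showed -0.24 ± 0.13 (adjusted p = 0.213), neither of them called. The balance of the subunits per length differed accordingly. The TPM ratio of *aak-1* over *aak-2* averaged 4.19 ± 0.45 at 37°C and 2.68 ± 0.63 at 20°C in rescued animals. Mutants had 2.60 ± 0.84 at 37°C and 1.60 ± 0.45 at 20°C, and wildtype had 1.38 ± 0.11 at 37°C and 0.972 ± 0.40 at 20°C (SD, n = 4, or 3 for wildtype at 20°C). The mean ratio was near 1 in wildtype at 20°C, and rescued animals had the highest mean ratio at either temperature.

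Of the 2 Rag GTPases, *ragc-1* rose with heat. It had 368, 339, 372 and 354 CPM in wildtype at 37°C, against 253, 263 and 218 CPM at 20°C, a log2 fold change of 0.54 ± 0.13 (SE, adjusted p = 0.0136). In mutants it had 350, 435, 352 and 356 CPM at 37°C, against 306, 286, 266 and 260 CPM at 20°C, a log2 fold change of 0.42 ± 0.11 (adjusted p = 0.0124). Neither pair of groups overlapped. In rescued animals it had 265, 280, 198 and 266 CPM at 37°C, against 237, 222, 235 and 219 CPM at 20°C, where the groups overlapped and the difference of 0.18 ± 0.13 was not called (adjusted p = 0.358). The call in wildtype was lost without replicate 2 (adjusted p = 0.0747), without the deeper libraries (adjusted p = 0.188) and with depth class as a covariate (adjusted p = 0.106), although the value stayed between 0.42 and 0.60. That in mutants was lost without replicate 2 (0.35, adjusted p = 0.0669), without replicate 4 (0.34, adjusted p = 0.0933) and with scaling to library size only (0.26, adjusted p = 0.105).

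Its partner *raga-1* had 149, 142, 148 and 155 CPM in wildtype at 37°C, against 131, 139 and 129 CPM at 20°C. These groups did not overlap either (2-sided exact permutation p = 0.0286, the smallest that 4 against 3 libraries allow), but the difference was small and was not called over all genes (0.15 ± 0.11, adjusted p = 0.345). RAGA-1 and RAGC-1 work as a heterodimer, and their TPM ratio, *ragc-1* over *raga-1*, averaged 2.26 ± 0.13 at 37°C and 2.11 ± 0.077 at 20°C in rescued animals. Mutants had 2.56 ± 0.15 at 37°C and 2.14 ± 0.030 at 20°C, and wildtype had 2.81 ± 0.11 at 37°C and 2.13 ± 0.15 at 20°C (SD). At 20°C the ratio was near 2.1 in all genotypes, and in mutants and wildtype its lowest value at 37°C (2.40 and 2.66) was above its highest value at 20°C (2.17 and 2.24).

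The remaining members did not pass the test under heat. The S6 kinase gene *rsks-1* came nearest, at 84.9, 88.3, 49.2 and 58.2 CPM in wildtype at 37°C, against 112, 95.7 and 109 CPM at 20°C. These groups did not overlap, and the difference was -0.59 ± 0.23 (adjusted p = 0.0771). It was past the threshold in 4 of 12 alternatives, among them the fit of all 23 libraries at once (adjusted p = 0.0107). The same gene differed by -0.33 ± 0.14 in mutants (adjusted p = 0.0861), and in rescued animals by -0.30 ± 0.15 (adjusted p = 0.173). The folliculin gene *flcn-1* had 36.2, 38.4, 32.4 and 39.9 CPM in wildtype at 37°C, against a wider spread of 42.4, 31.9 and 71.0 CPM at 20°C (-0.40 ± 0.25, adjusted p = 0.254). For *rheb-1* the differences were -0.23 ± 0.12 in rescued animals (adjusted p = 0.180, groups not overlapping), -0.12 ± 0.12 in mutants and 0.04 ± 0.12 in wildtype. The TOR kinase gene *let-363* differed by 0.21 ± 0.15, 0.10 ± 0.13 and 0.03 ± 0.24 in the same order of genotypes, and *daf-15* by 0.06 ± 0.14, 0.03 ± 0.12 and -0.20 ± 0.19. No member of the core pair was called in any genotype, and the sign of their values turned under some alternatives, for *let-363* in mutants and wildtype and for *daf-15* in each genotype.

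Counted together, 1 of 9 genes was called in rescued animals (0 higher, 1 lower), 2 of 9 in mutants (1 higher, 1 lower) and 3 of 9 in wildtype (1 higher, 2 lower). Over all genes tested the share called was 20.4% in rescued animals (11.7% higher, 8.72% lower), 38.1% in mutants (21.3% higher, 16.8% lower) and 32.1% in wildtype (15% higher, 17.1% lower). The counts of the 9 members were near or below what these shares give, and whether they differ was not tested. The groups did not overlap for 2 members in rescued animals (0 higher, 2 lower), 2 in mutants (1 higher, 1 lower) and 5 in wildtype (2 higher, 3 lower). Over all genes this held for 24.5% in rescued animals (11.9% higher, 12.6% lower), 36% in mutants (20.7% higher, 15.3% lower) and 40.9% in wildtype (20.2% higher, 20.7% lower). Their median log2 fold change was 0.06 in rescued animals, -0.12 in mutants and -0.20 in wildtype, beside 0.01, 0.04 and 0.01 over all genes. Tests of whether the heat response itself differed between genotypes called 0 of the 9 genes in each of 3 interactions, against 3.07% of all genes for rescued animals and wildtype, 0.0445% for rescued animals and mutants, and 0% for mutants and wildtype. DESeq2 also called 0 members in each. At an unadjusted p under 0.05 edgeR gave 3, 0 and 0 members and 3149, 1301 and 585 genes in these interactions. The 3 members, all between rescued animals and wildtype, were *ragc-1* (-0.41 ± 0.16, adjusted p = 0.138), *rheb-1* (-0.32 ± 0.15, adjusted p = 0.205) and *flcn-1* (0.64 ± 0.27, adjusted p = 0.170). A difference between genotypes in the heat response of *ragc-1*, *aak-1* or any other member was therefore not established, whichever side of the threshold each response fell on.

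**Figure D2:**
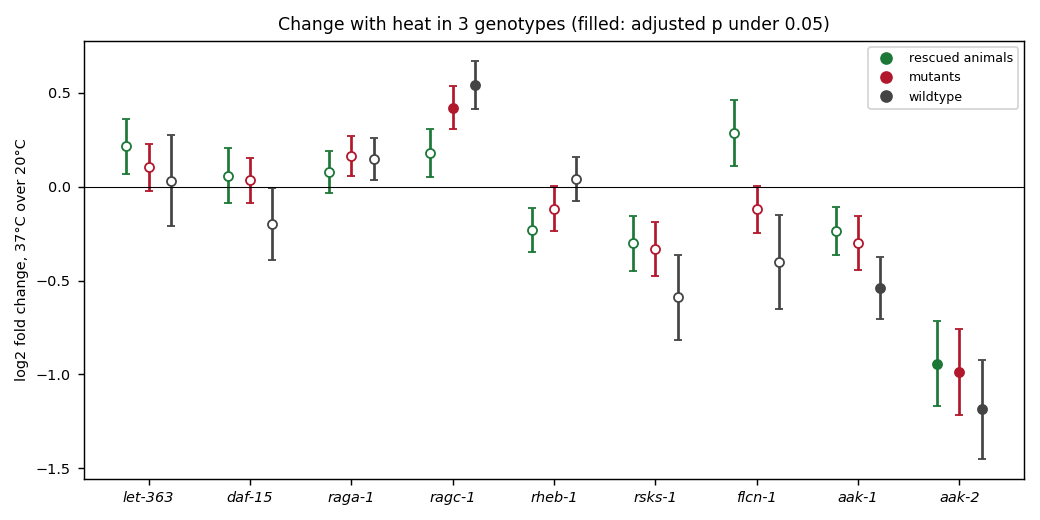
For each of the 9 genes the log2 fold change of 37°C over 20°C is plotted with its SE in rescued animals (green), mutants (red) and wildtype (grey); filled points had an adjusted p under 0.05. The 3 values for *aak-2* lie between -1.19 and -0.94, and *ragc-1* has the highest values of the group in wildtype and mutants.

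The other AMPK subunits, listed by role, were split under heat. AMPK needs a beta subunit as scaffold and a gamma subunit that binds adenine nucleotides. Of 7 beta and gamma genes, 1 rose and 1 fell in rescued animals, while mutants and wildtype had 1 that rose and 2 that fell each, with medians of -0.06, -0.07 and -0.23. Beside the heat counts of this list and of those below stand the shares called over all genes. These were 20.4% in rescued animals, 38.1% in mutants and 32.1% in wildtype, and whether any list differs from them was not tested. The beta genes were called in opposite directions. *aakb-2* averaged 28.9 ± 4.27 CPM at 37°C and 13.5 ± 0.890 CPM at 20°C in rescued animals, 35.2 ± 11.6 and 10.4 ± 1.98 CPM in mutants, and 39.6 ± 12.9 and 15.6 ± 4.23 CPM in wildtype, rising by 1.14 ± 0.16, 1.76 ± 0.23 and 1.34 ± 0.31 on the log2 scale (adjusted p = 0.000397, 0.000122 and 0.0118). *aakb-1* fell in mutants (-0.90 ± 0.21, adjusted p = 0.00474) and in wildtype (-0.89 ± 0.21, adjusted p = 0.0116) and differed by -0.41 ± 0.19 in rescued animals (adjusted p = 0.146), and its call in wildtype held in 8 of 12 alternatives. The gamma gene *aakg-3* fell by 1.63, 2.44 and 2.36 on the log2 scale in rescued animals, mutants and wildtype, at 1 to 16 counts per library at 37°C and 18 to 47 at 20°C, so its size rests on few reads. The other 4 gamma genes were not called in any genotype. Per length, *aakb-2* was the more abundant beta gene, at 24.3 TPM against 8.56 TPM for *aakb-1* over the 23 libraries. It lies 6867 bases from *rsks-1* on chromosome III, on the same strand.

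**Figure D3:**
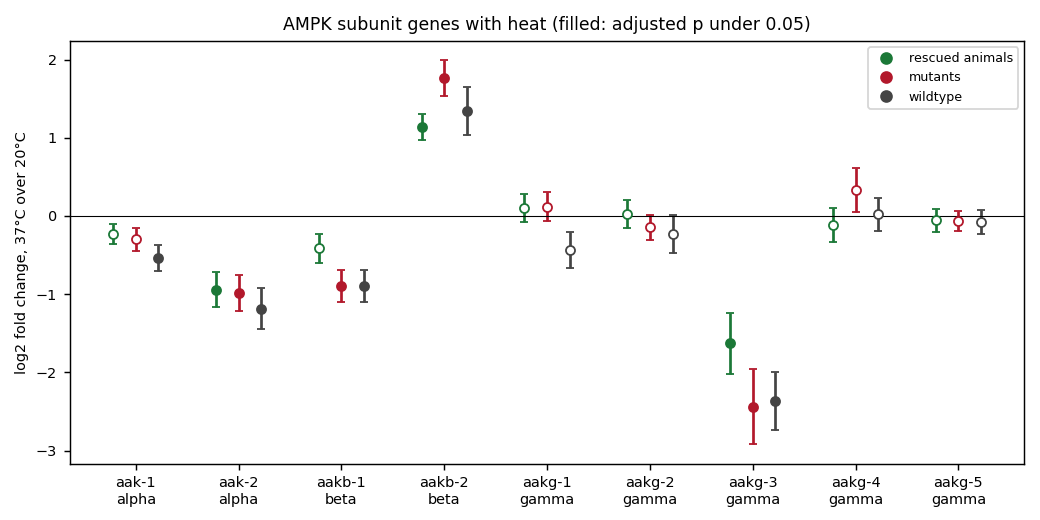
The log2 fold change of 37°C over 20°C, with its SE, is plotted for 2 alpha, 2 beta and 5 gamma genes of AMPK in rescued animals (green), mutants (red) and wildtype (grey), filled where the adjusted p was under 0.05. *aakb-2* stands above 1 in the 3 genotypes, *aakb-1*, *aak-2* and *aakg-3* lie below 0, and the other gamma genes scatter about 0.

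Among 6 genes that act on AMPK from above, 0 rose and 1 fell in rescued animals, 2 rose and 1 fell in mutants, and 0 rose and 1 fell in wildtype. The LKB1 kinase gene *par-4* rose in mutants (0.51 ± 0.16, adjusted p = 0.0244), as did *strd-1*, which encodes the STRAD pseudokinase partner (0.55 ± 0.13, adjusted p = 0.00610). Of the MO25 adaptor genes, *mop-25.1* fell in mutants (-0.47, adjusted p = 0.0298) and wildtype (-0.63, adjusted p = 0.0194), and *mop-25.2* fell in rescued animals (-0.47, adjusted p = 0.0458). These calls held in 8 of 12 alternatives for *par-4*, 9 and 7 of 12 for *mop-25.1* in mutants and wildtype, and 6 of 12 for *mop-25.2*. Of 4 AMPK targets measured, 1 changed in wildtype and 2 in mutants. *pod-2*, the acetyl-CoA carboxylase gene, fell in mutants (-1.08 ± 0.23, adjusted p = 0.00282) and in wildtype (-1.46 ± 0.28, adjusted p = 0.00510) and differed by -0.71 ± 0.28 in rescued animals (adjusted p = 0.0891). *atgl-1*, a triglyceride lipase gene, was past the threshold in mutants (0.43 ± 0.14, adjusted p = 0.0289), which held in 5 of 12 alternatives, with adjusted p up to 0.180, and was lost without any one replicate number.

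Around TORC1 most listed genes were not called under heat. Of 10 genes of TORC1 partners, GATOR and Ragulator, 1 rose and 1 fell in rescued animals, 1 rose and 1 fell in mutants, and 2 rose and 1 fell in wildtype, with medians of -0.18, -0.09 and -0.06. Among all genes 20.4%, 38.1% and 32.1% were called. The sestrin gene *sesn-1*, whose mammalian relatives restrain TORC1 when leucine is low, averaged 26.3 ± 3.84 CPM at 37°C and 45.7 ± 12.2 CPM at 20°C in rescued animals, 13.4 ± 2.80 and 37.1 ± 14.2 CPM in mutants, and 12.5 ± 2.23 and 42.9 ± 9.54 CPM in wildtype. It fell by 0.75 ± 0.20, 1.47 ± 0.25 and 1.78 ± 0.21 on the log2 scale (adjusted p = 0.0170, 0.000704 and 0.000587). *fnip-2*, the partner of folliculin, rose by 0.98 ± 0.19, 1.33 ± 0.22 and 1.31 ± 0.36 (adjusted p = 0.00342, 0.000634 and 0.0227), while *flcn-1* itself was not called. *npp-18*, a nuclear pore and GATOR component, rose in wildtype (0.72 ± 0.19, adjusted p = 0.0213). In wildtype the call of *fnip-2* held in 8 of 12 alternatives and that of *npp-18* in 7 of 12 (adjusted p up to 0.101).

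TORC2 shares the TOR kinase with TORC1 and carries other subunits. Its Rictor gene *rict-1* rose in mutants (0.89 ± 0.20, adjusted p = 0.00375) and in wildtype (1.09 ± 0.27, adjusted p = 0.0155), as did *sinh-1* (0.60 ± 0.17, adjusted p = 0.0123, and 0.87 ± 0.24, adjusted p = 0.0225), the gene of its Sin1 subunit. In rescued animals 0 of the 4 TORC2 genes passed, and *rict-1* differed by 0.49 ± 0.17 (adjusted p = 0.0565). The TORC2 substrate gene *sgk-1* fell in wildtype (-1.49 ± 0.26, adjusted p = 0.00329), and its heat response was higher in rescued animals than in wildtype in the test of the interaction itself (1.496 ± 0.40, adjusted p = 0.0448). That call held in 6 of 11 alternatives, with adjusted p up to 0.186, and was lost without the deeper libraries and without any one replicate number. The call of *sinh-1* held in 8 of 12 in mutants and 7 of 12 in wildtype.

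Downstream, 9 genes of S6 kinase and translation outputs gave 3 that rose and 1 that fell in rescued animals, and 4 that rose and 2 that fell both in mutants and in wildtype. *rps-6*, the ribosomal protein that S6 kinase phosphorylates, averaged 1951 ± 148 CPM at 37°C and 1048 ± 108 CPM at 20°C in rescued animals, 1636 ± 247 and 741 ± 28.2 CPM in mutants, and 1907 ± 245 and 809 ± 159 CPM in wildtype. It rose by 0.93 ± 0.14, 1.14 ± 0.13 and 1.23 ± 0.20 on the log2 scale (adjusted p = 0.000619, 5.28e-05 and 0.00235). *efk-1*, the elongation factor kinase gene, rose by 0.73, 1.101 and 1.05 (adjusted p = 0.00520, 0.000122 and 0.00484) and *ife-1*, an eIF4E gene, by 0.62, 0.74 and 0.93 (adjusted p = 0.0221, 0.000513 and 0.00419). The scaffold gene *ifg-1* (eIF4G) fell by 0.62, 0.84 and 1.06 (adjusted p = 0.0111, 0.000324 and 0.00221). *rps-6* is short, and over 5 equal classes of exonic length the median heat change in wildtype was 0.22 in the shortest class and -0.17 in the longest.

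A further 8 genes that the literature ties to where HLH-30 or TFEB resides were measured, and 2 rose and 3 fell in rescued animals, 1 rose and 5 fell in mutants, and 2 rose and 5 fell in wildtype. Over all genes 11.7% rose and 8.72% fell in rescued animals, 21.3% and 16.8% in mutants, and 15% and 17.1% in wildtype. Calcineurin dephosphorylates TFEB in mammals, and its catalytic gene *tax-6* fell in mutants (-0.95 ± 0.18, adjusted p = 0.00151) and wildtype (-1.67 ± 0.19, adjusted p = 0.000484), with -0.68 ± 0.24 in rescued animals (adjusted p = 0.0637). *rcan-1*, a regulator of calcineurin, fell in mutants (-1.54 ± 0.24, adjusted p = 0.000399) and wildtype (-1.98 ± 0.28, adjusted p = 0.00126), with -0.88 ± 0.30 in rescued animals (adjusted p = 0.0540). In rescued animals *tax-6* was past the threshold in 8 of 12 alternatives (adjusted p up to 0.277) and *rcan-1* in 10 of 12 (adjusted p up to 0.257). *gsk-3*, a kinase gene, fell by 0.67, 0.78 and 1.26 in rescued animals, mutants and wildtype (adjusted p = 0.0350, 0.00509 and 0.00616), and *par-5*, which encodes a phosphoserine-binding adaptor, rose by 0.70, 0.98 and 1.11 (adjusted p = 0.0109, 7.73e-05 and 0.00257). The related gene *ftt-2*, named after its values were seen, went the other way and fell by 0.65, 0.59 and 0.70 (adjusted p = 0.00854, 0.00373 and 0.00542). These are changes of RNA, and phosphorylation and localization were not measured in these libraries.

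The comparison of mutants with wildtype asks what loss of HLH-30 does to its own upstream genes. At 20°C 0 of 9 genes were called, as against 0.734% of all genes, and at an unadjusted p under 0.05 there were 3 members and 2263 genes. *rsks-1* had 57.6, 79.5, 64.4 and 83.1 CPM in mutants, against 112, 95.7 and 109 CPM in wildtype, with no overlap (-0.55 ± 0.15, adjusted p = 0.166). *rheb-1* had 168, 156, 160 and 154 CPM in mutants, against 130, 142 and 123 CPM in wildtype, again with no overlap (0.29 ± 0.11, adjusted p = 0.253). *aak-2* differed by -0.76 ± 0.28 (adjusted p = 0.254). At 37°C 0 of 9 were called, as against 0.764% of all genes, and 1 member, *aak-2*, and 2470 genes had an unadjusted p under 0.05. It had 10.7, 6.32, 10.1 and 11.2 CPM in mutants, against 17.3, 13.9, 11.3 and 14.4 CPM in wildtype. These did not overlap, by a margin of 11.2 against 11.3 CPM (-0.56 ± 0.21, adjusted p = 0.202; 2-sided exact permutation p = 0.0286, the smallest that 4 against 4 libraries allow). The groups did not overlap for 3 members at 20°C (2 higher, 1 lower; 7.48% and 8.06% of all genes) and 1 at 37°C (0 higher, 1 lower; 6.63% and 4.66% of all genes). The values of the 9 members ran from -0.76 to 0.29 at 20°C and from -0.56 to 0.27 at 37°C. DESeq2 and the other alternatives also called 0 members at either temperature.

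In rescued animals, by contrast, 4 members were called against both other genotypes at 37°C, and 1, *aak-1*, at 20°C. Against mutants, 5 of 9 genes were called at each temperature, *aak-1* and *flcn-1* higher and *raga-1*, *ragc-1* and *rheb-1* lower. The share called over all genes was 23.1% at 20°C (10.1% higher, 13.1% lower) and 36.8% at 37°C (16.5% higher, 20.3% lower). Against wildtype, 1 of 9 was called at 20°C (higher) and 4 of 9 at 37°C (2 higher, 2 lower), with 12.9% of all genes at 20°C (5% higher, 7.92% lower) and 40.1% at 37°C (18.2% higher, 21.9% lower). Both totals against wildtype were near what the shares over all genes give. Groups without overlap were found for 7 members over mutants and 3 over wildtype at 20°C, and for 5 over each at 37°C. Over all genes these shares were 28.2% over mutants (15.5% higher, 12.7% lower) and 26.1% over wildtype (12.4% higher, 13.6% lower) at 20°C, and 35.6% over mutants (17.3% higher, 18.4% lower) and 38.2% over wildtype (19.5% higher, 18.7% lower) at 37°C. The comparisons with mutants and with wildtype share the libraries of rescued animals, so they do not repeat each other independently.

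The gene that differed most was *aak-1*. It had 54.8, 46.6, 49.2 and 48.6 CPM in rescued animals at 37°C, against 20.3, 22.998, 21.7 and 23.7 CPM in mutants and 20.5, 18.7, 16.2 and 18.3 CPM in wildtype. At 20°C it had 52.6, 61.2, 62.4 and 64.7 CPM in rescued animals, against 27.1, 25.8, 32.9 and 23.1 CPM in mutants and 28.5, 25.9 and 25.5 CPM in wildtype. The lowest library of rescued animals lay above the highest of any other group. The log2 fold change over mutants was 1.06 ± 0.14 at 20°C (adjusted p = 0.000421) and 1.1004 ± 0.13 at 37°C (adjusted p = 0.000128), and over wildtype 1.15 ± 0.14 at 20°C (adjusted p = 0.00287) and 1.38 ± 0.14 at 37°C (adjusted p = 6.32e-05). These calls held in the alternatives, except that over wildtype at 20°C without replicate 3 (1.11, adjusted p = 0.0785). The other catalytic subunit, *aak-2*, was not called in any of these comparisons.

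Several neighbours of *aak-1* were also higher in rescued animals. The gene lies on chromosome III at 8756995 to 8761101 on the minus strand. Within 50 kb on each side, 7 of 23 other tested genes (*B0303.11*, *hipr-1*, *pdhk-2*, *sma-2*, *mig-22*, *K02D10.1* and *snap-29*) were called higher in all 4 comparisons of rescued animals, and 17 in at least 1. The other 6 were called higher in none, and of these *F54F2.7* was called lower in all 4 (-0.79 and -0.74 over mutants, -0.69 and -0.50 over wildtype, at 20°C and 37°C in each pair) and *prx-19* in 3 (-0.56 and -0.70 over mutants, -0.51 over wildtype at 37°C). In the genome at large 244 of 13482 genes (1.81%) were higher in all 4. In windows of 500 kb the excess was held by 2 adjacent windows of III, from 8.0 to 8.5 Mb with 19 of 108 genes (17.6%) and from 8.5 to 9.0 Mb with 20 of 93 (21.5%), together 39 of 201 (19.4%) against 205 of 13281 (1.54%) elsewhere. The other windows of III held 0 to 3 such genes, of 45 to 120 tested, and the highest share in any other of the 203 windows was 10%. These windows and neighbours were chosen after their values were seen, so no test is given.

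The stretch from 8 to 9 Mb held genes that were lower as well. Of its 201 genes, 73 were called higher and 29 lower in rescued animals than in mutants at 20°C, and 80 higher and 35 lower at 37°C. Over wildtype 55 were higher and 5 lower at 20°C, and 91 higher and 28 lower at 37°C. The median over all 201, the called genes included, of the log2 fold change in rescued animals over mutants was 0.30 at 20°C and 0.23 at 37°C, with 0.07 and -0.01 elsewhere, and over wildtype 0.38 at 20°C and 0.33 at 37°C, with 0.01 and -0.05 elsewhere. In mutants over wildtype the stretch had medians of 0.07 at 20°C and 0.09 at 37°C, with -0.08 and -0.02 elsewhere, and 0 and 1 of its genes were called higher. The count of genes called in all 4 comparisons depended on replicates: 39 became 11 without replicate 2 and 1 without replicate 3 (49 and 20 genes in the whole genome). The shift of the medians kept its sign under every alternative run. The stretch minus the rest of the genome stayed between 0.35 and 0.42 over wildtype at 20°C and between 0.35 and 0.41 at 37°C. Over mutants it was smaller, between 0.20 and 0.29 at 20°C and between 0.21 and 0.28 at 37°C. *aak-1* itself exceeded the median of the stretch by 0.76 and 0.87 over mutants and by 0.77 and 1.04 over wildtype, at 20°C and 37°C in each pair. Whether *aak-1* differs because of HLH-30 in neurons or through its place in this stretch in strain LRL147 cannot be told apart with 1 line.

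A further limit lies in the counting. The 75 exonic bases that *aak-1* shares with *sma-2* are a small part of either gene, but *sma-2* was also higher in rescued animals, by 1.23 (adjusted p = 0.0144) and 1.01 (adjusted p = 0.000325) over mutants and by 1.40 (adjusted p = 0.0174) and 1.00 (adjusted p = 0.00191) over wildtype, at 20°C and 37°C in each pair. Under heat the genes went opposite ways in wildtype, where *sma-2* rose (0.86, adjusted p = 0.0353). The genes whose profile over the 6 group means was closest to that of *aak-1*, by the smallest root mean square difference of centred log2 CPM among 9771 candidates, were *crn-7* (0.095) and *hipr-1* (0.103). Both lie in the same stretch, *crn-7* at 8268609 to 8270680 and *hipr-1* at 8720201 to 8725334. By the same measure the nearest profiles were *hmg-1.1* (0.070) and *daf-5* (0.102) for *aak-2*, and *abhd-12* (0.020) and *pch-2* (0.024) for *ragc-1*, none of them on the chromosome of its member.

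**Figure D4:**
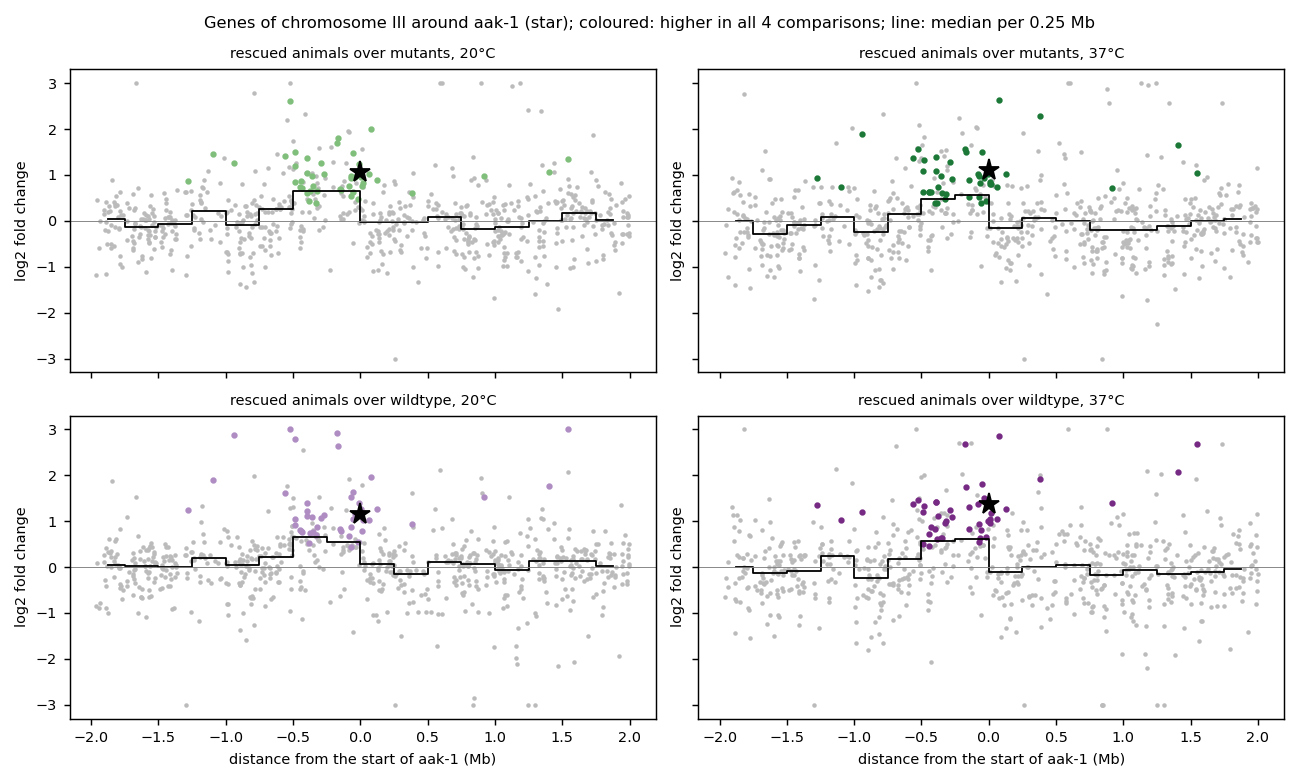
Each point is 1 tested gene of chromosome III, placed by its distance in Mb from the start of *aak-1* and by its log2 fold change in rescued animals over mutants (top) or wildtype (bottom), with values beyond 3 drawn at 3 and beyond -3 at -3. Coloured genes were called higher in all 4 comparisons, the star is *aak-1* and the line is the median per 0.25 Mb, which is highest in the stretch just left of *aak-1* in all 4 panels.

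*flcn-1* was the other member called higher. It had 55.2, 57.2, 95.4 and 74.5 CPM in rescued animals at 37°C, against 36.8, 38.4, 46.5 and 39.9 CPM in mutants and 36.2, 38.4, 32.4 and 39.9 CPM in wildtype. At 20°C it had 56.1, 61.7, 59.2 and 62.4 CPM in rescued animals, against 42.7, 42.5, 40.8 and 49.8 CPM in mutants and 42.4, 31.9 and 71.0 CPM in wildtype. At 37°C no library of rescued animals overlapped the others, and the log2 fold change was 0.74 ± 0.18 over mutants (adjusted p = 0.00514) and 0.88 ± 0.18 over wildtype (adjusted p = 0.00294), both held in 12 of 12 alternatives. At 20°C it was 0.37 ± 0.11 over mutants (adjusted p = 0.0332), which held in 4 of 12 alternatives, with adjusted p up to 0.229 (without replicate 2). The gene on the other strand, *malt-1*, which like *sma-2* was named after its values were seen, differed in the opposite direction, by -0.51 over wildtype at 37°C (adjusted p = 0.0401).

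The 3 GTPase genes were called lower in rescued animals than in mutants at each temperature. Against wildtype, *rheb-1* and *ragc-1* were called lower at 37°C only, and *raga-1* at neither temperature. *rheb-1* had 88.7, 95.2, 76.0 and 95.8 CPM in rescued animals at 37°C, against 127, 180, 141 and 141 CPM in mutants and 137, 128, 137 and 143 CPM in wildtype. At 20°C it had 104, 111, 110 and 103 CPM in rescued animals, against 168, 156, 160 and 154 CPM in mutants and 130, 142 and 123 CPM in wildtype. All 8 libraries of rescued animals were below all 15 others. The log2 fold change over mutants was -0.66 ± 0.08 at 20°C (adjusted p = 0.000333) and -0.80 ± 0.14 at 37°C (adjusted p = 0.000700), and over wildtype -0.67 ± 0.12 at 37°C (adjusted p = 0.00121), and these held in 12 of 12 alternatives each. Over wildtype at 20°C it was -0.33 ± 0.10 (adjusted p = 0.0626), past the threshold in 3 of 10 alternatives, with adjusted p between 0.0380 and 0.337.

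*ragc-1* followed at 37°C, with the 265, 280, 198 and 266 CPM of rescued animals all below the 350, 435, 352 and 356 CPM of mutants and the 368, 339, 372 and 354 CPM of wildtype. The log2 fold change was -0.63 ± 0.14 over mutants (adjusted p = 0.00377) and -0.56 ± 0.14 over wildtype (adjusted p = 0.00726). The value over wildtype was not past the threshold without the deeper libraries (-0.43, adjusted p = 0.0631). At 20°C *ragc-1* differed from mutants by -0.37 ± 0.09 (adjusted p = 0.0148), a call lost without replicate 1 (adjusted p = 0.0524) and without replicate 2 (adjusted p = 0.156), in the fit of all libraries (-0.29, adjusted p = 0.0509) and with scaling to library size only (-0.29, adjusted p = 0.0925). Over wildtype at 20°C *ragc-1* was not called and the groups overlapped (-0.13 ± 0.11, adjusted p = 0.436).

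*raga-1* had 130, 141, 111 and 135 CPM in rescued animals at 37°C, against 165, 190, 151 and 172 CPM in mutants, and 126, 126, 125 and 124 CPM in rescued animals at 20°C, against 164, 153, 147 and 142 CPM in mutants. Neither pair overlapped, and the log2 fold change was -0.46 ± 0.12 at 37°C (adjusted p = 0.00996) and -0.35 ± 0.09 at 20°C (adjusted p = 0.0145). The first was lost without replicate 1 (-0.40, adjusted p = 0.0798) and without replicate 2 (-0.38, adjusted p = 0.0847). The second was lost without replicates 1, 2 or 3 in turn (adjusted p = 0.0647, 0.141 and 0.0513) and with scaling to library size only (-0.26, adjusted p = 0.0985). Against wildtype *raga-1* was not called at 37°C (-0.26 ± 0.12, adjusted p = 0.0970) or at 20°C (-0.11 ± 0.09, adjusted p = 0.442).

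Beside these stand 2 of the listed Ragulator genes, named after their values were seen, whose products anchor the Rag GTPases to the lysosome. *lmtr-2* averaged 59.6 ± 10.8 CPM in rescued animals at 37°C, 106 ± 11.9 CPM in mutants and 116 ± 6.94 CPM in wildtype, and *lmtr-3* averaged 67.8 ± 10.2, 113 ± 12.9 and 98.9 ± 5.85 CPM. Both were lower in rescued animals at 37°C, *lmtr-2* by -0.90 over mutants and -1.02 over wildtype (adjusted p = 0.000494 and 0.000417) and *lmtr-3* by -0.81 and -0.60 (adjusted p = 0.000797 and 0.00495). At 20°C both were lower than in mutants (-0.78 and -0.74, adjusted p = 0.000324 and 0.000827), and *lmtr-2* was also lower than in wildtype (-0.51, adjusted p = 0.0210). The listed Ragulator gene *lmtr-5* did not share this direction, and its groups overlapped. At 37°C it averaged 25.4 ± 4.08 CPM in rescued animals, 25.01 ± 1.37 CPM in mutants and 23.9 ± 1.75 CPM in wildtype. Its means at 20°C were 33.5 ± 4.61, 29.9 ± 1.25 and 30.4 ± 1.48 CPM in the same order. Over the list of 10 TORC1 partners, GATOR and Ragulator genes, 1 was higher and 5 lower than in mutants at 37°C and 1 higher and 3 lower than in wildtype at 37°C, and 0 were higher and 2 and 1 lower at 20°C. The higher one at 37°C was *sesn-1* (0.90 over mutants, adjusted p = 0.00186, and 1.02 over wildtype, adjusted p = 0.000926).

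The lower genes are short and the higher ones long, and length moved with these comparisons. In the shortest of 5 equal classes of exonic length the median log2 fold change over all genes was -0.12 at 20°C and -0.31 at 37°C over mutants, and -0.14 and -0.39 over wildtype. In the longest class it was 0.23 and 0.22 over mutants, and 0.11 and 0.21 over wildtype. *ragc-1* (1095 bases) is in the second class, *rheb-1* (1192) and *raga-1* (1273) in the third and the other 6 members in the longest. *rheb-1* lay -0.68 and -0.78 from its class median over mutants and -0.33 and -0.63 over wildtype, at 20°C and 37°C in each pair. *aak-1* lay 0.83 and 0.88 from it over mutants and 1.04 and 1.16 over wildtype. Against mutants at 20°C the distance of *flcn-1* was 0.14, whereas at 37°C it was 0.52 over mutants and 0.67 over wildtype. *raga-1* and *ragc-1* lay -0.11 and -0.05 from their class medians over wildtype at 20°C, and -0.21 and -0.40 over wildtype at 37°C. The Ragulator genes *lmtr-2* and *lmtr-3* are in the shortest class, and over wildtype *lmtr-3* lay -0.15 from its median at 20°C and -0.22 at 37°C, while *lmtr-2* lay -0.37 and -0.63 from it. For *let-363* and *daf-15*, the longest members, the distance stayed between -0.07 and 0.06 in these 4 comparisons. The part of length in the members' differences was not tested. Markers moved too: all 8 intestine markers were higher in rescued animals at 37°C, with medians of 1.201 over mutants and 1.53 over wildtype. Of 5 sperm markers, 4 were higher than in mutants at each temperature (medians of 3.28 at 20°C and 2.80 at 37°C). Their summed level in mutants at 20°C was only 0.31 to 1.39 CPM. Over wildtype 0 sperm markers were called higher at 20°C and 1 at 37°C. Over wildtype at 37°C, 0 of 10 germline markers were higher and 4 lower, and 2 of 7 neuron markers were higher and 3 lower. The part of these markers was not tested either.

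**Figure D5:**
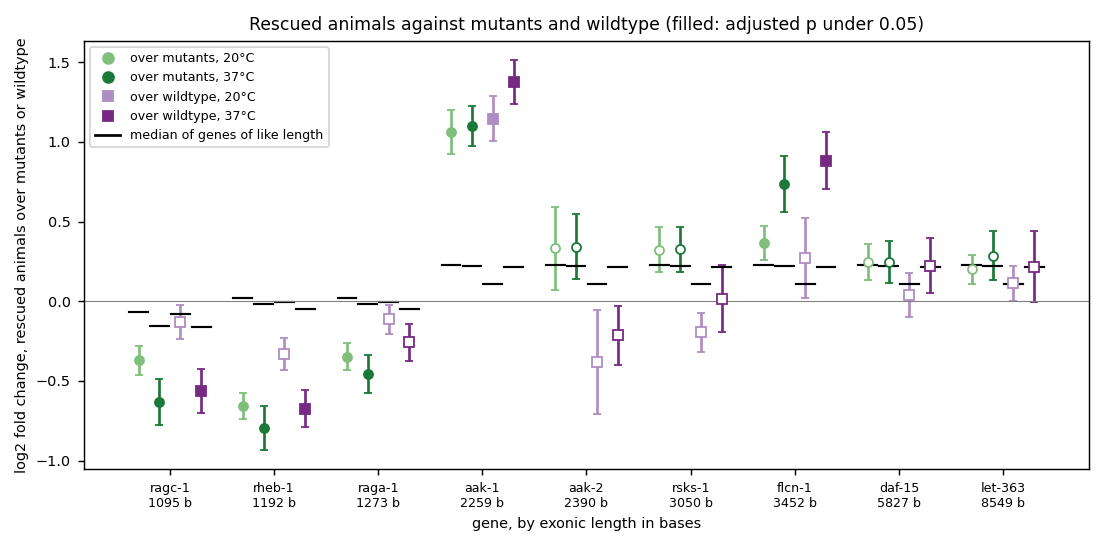
The log2 fold change of rescued animals over mutants (circles) and over wildtype (squares) at 20°C and 37°C is plotted with its SE for the 9 genes in order of exonic length, filled where the adjusted p was under 0.05; black ticks are medians of all genes of the same length class. The 3 short GTPase genes lie below their ticks, *aak-1* lies between 1.06 and 1.38, and *let-363* and *daf-15* lie close to their ticks.

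The remaining members did not differ past the threshold in these 4 comparisons. *rsks-1* was nearest, at 109, 89.9, 94.1 and 83.3 CPM in rescued animals at 20°C, against 57.6, 79.5, 64.4 and 83.1 CPM in mutants (0.32 ± 0.14, adjusted p = 0.120), and it differed from mutants by 0.33 ± 0.14 at 37°C (adjusted p = 0.0837). The level of *rsks-1* ran in the order wildtype at 20°C (105 ± 8.49 CPM), rescued animals at 20°C (94.1 ± 10.9), rescued animals at 37°C (74.2 ± 11.1), mutants at 20°C (71.2 ± 12.1), wildtype at 37°C (70.2 ± 19.4) and mutants at 37°C (56.6 ± 6.04), and each neighbouring pair in this order overlapped. *let-363* and *daf-15* were highest in rescued animals at 37°C (113 ± 22.1 and 105 ± 14.5 CPM) and lowest in mutants at 20°C (82.8 ± 6.42 and 82.5 ± 7.10 CPM), and no neighbouring groups in their order were separate. For *aak-2* the order was wildtype at 20°C (32.2 ± 12.2 CPM), rescued animals at 20°C (25.21 ± 8.42), mutants at 20°C (18.9 ± 4.93), wildtype at 37°C (14.2 ± 2.43), rescued animals at 37°C (12.7 ± 1.91) and mutants at 37°C (9.57 ± 2.21), with the 3 groups at 20°C above the 3 groups at 37°C by their means.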

How the data were processed

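The authors trimmed paired-end reads with Trimmomatic 0.36, mapped them with STAR 2.5.2b and counted them per gene with featureCounts in Subread 1.5.2; they deposited raw counts, without normalization. Whether counting used strand is not given in the sources used here. Of 24 files, 1 that repeats another library was left out. Counts were analysed in R 4.3.3 with edgeR 4.0.16 (TMM, quasi-likelihood test, Benjamini-Hochberg) after removing genes with a mean under 10 counts. Pairs of groups were fitted alone and interactions in 1 fit of 23 libraries in 6 groups. The study describes its replicates as independent, and samples are taken as separate pools. If they are not, p-values measure technical spread only. TPM used the lengths in the files. The code was tested on simulated data. Alternatives covered normalization, filter, depth, tool (DESeq2 1.42.0), fit, replicate block and each replicate left out. Samples were not treated as paired by replicate number, since the correlation exceeded 0.1 for every pair in 0 of 9 comparisons. The mean correlation of libraries with the same number ran from -0.0002 (mutants and wildtype at 37°C) to 0.25 (rescued animals and wildtype at 20°C). In the latter comparison libraries with other numbers had -0.07. A pairing in part of the comparisons was therefore not excluded.

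The members and lists were chosen with earlier results of these data known. Named were all 9 members, *hlh-30*, up to 4 called genes per list with the largest mean heat change, and the 2 nearest profiles (mean of at least 50 counts) of each heat-called member; others are said to be chosen after their values were seen. The listed names *imb-4* and *epg-1* were not matched to a gene name, whereas the nuclear exportin gene *xpo-1* was matched and measured. No sequence was used here.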

Additional observations from a re-analysis of the deposited data

Results flagged for a closer look

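In 165 groups of 4 libraries, 33 genes each looked at in up to 5 groups, 8 groups held 1 library that stood apart from the other 3 by Dixon's criterion, where chance gives about 5 percent, and 1 of the 45 groups of members was among them. That one was *ragc-1*, at 435 CPM in replicate 2 of mutants at 37°C, with 350 to 356 CPM in the others. The *hlh-30* transcript was at 50.7 CPM in replicate 3 of rescued animals at 37°C, with 24.4 to 27.0 CPM in the others, and the same library had the highest *sesn-1*, at 32.02 CPM with 24.0 to 25.22 CPM in the others. In replicate 4 of mutants at 20°C *fnip-2* was at 15.1 CPM, with 9.38 to 10.3 CPM in the others, and in replicate 3 *rict-1* was lowest at 27.3 CPM, with 36.2 to 37.5 CPM in the others. In replicate 2 of wildtype at 37°C *strd-1* was at 40.9 CPM, with 33.9 to 34.1 CPM in the others. In mutants at 37°C *atgl-1* was at 50.1 CPM in replicate 4, with 39.3 to 40.8 CPM in the others, and *gsk-3* was lowest at 10.4 CPM in replicate 2, with 13.9 to 14.4 CPM in the others. The heat response of *sgk-1* differed between rescued animals and wildtype by 1.496 on the log2 scale in the test of the difference itself, a call that held in 6 of 11 alternatives (adjusted p up to 0.186).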

How the results depend on the processing

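Of 250 alternative values of members past the threshold, 212 stayed past it and 38 did not, and none turned sign. Of 379 for members not past it, 348 kept their side and sign, 12 passed and 19 turned sign. Of 851 for the other named genes past it, 717 stayed past it and 134 did not. The count of called members under heat in wildtype, 3, became 0 with depth class as a covariate and 0 without the deeper libraries, where 3 of 4 wildtype libraries at 37°C are deep. For rescued animals over mutants at 20°C 5 became 3 in 1 fit of all libraries and 3 with library size only, for rescued animals over wildtype at 20°C 1 became 2 in 1 fit of all libraries and 2 with DESeq2, and for rescued animals over mutants at 37°C 5 became 8 with library size only. With each replicate number left out, the counts ran from 1 to 2 under heat in wildtype, 1 to 2 in mutants, 0 to 1 in rescued animals, 2 to 5 for rescued animals over mutants at 20°C, 0 to 3 over wildtype at 20°C, 4 to 5 over mutants at 37°C and 4 to 4 over wildtype at 37°C, and stayed at 0 in mutants over wildtype and in the interactions.

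With library size only, the median of all genes shifted to -0.10, -0.11 and -0.07 under heat in wildtype, mutants and rescued animals, and to between 0.14 and 0.19 for rescued animals over the others. Turned signs, all of values near 0 that were not called, were under heat in wildtype *let-363* (-0.094 with library size only, -0.12 with the replicate block), *daf-15* (0.019 with depth class, 0.0056 without the deeper libraries) and *rheb-1* (-0.075 with library size only). In mutants they were *let-363* (-0.053 with library size only) and *daf-15* (-0.12 with library size only, -0.011 with no filter, -0.058 without the deeper libraries). In rescued animals they were *daf-15* (-0.023 with library size only, -0.048 with depth class, -0.062 without the deeper libraries), *raga-1* (-0.011) and *sgk-1* (-0.017), both with library size only. With each replicate number left out, the values that turned sign ran under heat in wildtype from -0.089 to 0.18 for *let-363* and -0.058 to 0.47 for *atgl-1*, in mutants from -0.041 to 0.18 for *let-363* and -0.071 to 0.13 for *daf-15*, and in rescued animals from -0.029 to 0.12 for *daf-15* and -0.15 to 0.36 for *sgk-1*. The 39 genes called from 8 to 9 Mb of chromosome III, a count and its alternatives chosen after seeing the data, became 11 without replicate 2 and 1 without replicate 3, and were 29 to 57 otherwise. Depth class and leaving out deeper libraries could not be run for rescued animals over wildtype at 20°C, which hold no deep library. The 3 libraries of wildtype at 20°C limit every comparison that uses them.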
